A study of Mus musculus with 104 samples.

Results

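The proteins of the cytosolic ribosome were followed across single neurons of the mouse substantia nigra. A gene was a member if its symbol was Rpl or Rps with a number, with at most a closing a, x or l, or was Rplp0, Rplp1, Rplp2 or Rpsa. Pseudogene symbols and the Rps6k kinases were left out. Of the 45808 gene rows of the count table, 81 were members, 49 of the large and 32 of the small subunit. The rule used names only and no measured value, though members were chosen with earlier results of these data known. A gene was called expressed if its counts over all libraries together reached 10 CPM, the scale on which the gene counts of a library sum to 1000000, and 25% or more of one group's libraries held a count of it, which 77 members met, 45 large and 32 small.

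The study made fluorescent reporters for Lewy pathology, which is the inclusions of α-synuclein seen in Parkinson disease. According to the design text, neurons of the substantia nigra pars compacta with α-Syn-6H-EGFP inclusions were drawn from brain slices into a patch pipette, and each RNA sample was amplified by Smart-seq2, which copies polyadenylated RNA from an oligo-dT primer. All 104 libraries are labelled dopaminergic neurons of the substantia nigra, and by title 38 are experiment and 66 control. The genotype, strain, age and treatment of the animals, what the control neurons were, and which neurons came from which animal are not in the labels used here, so each group counts as 1 sample. No test between groups was therefore made. Values are given with the spread over libraries. Intervals cover counting error only, treat reads as independent counts and leave out the spread between neurons. Reads carry no molecular identifiers, so the intervals do not cover amplification either. The libraries also fall into 4 blocks by the order of the sample records and the numbers in the titles, which the labels do not call batches, and values within them stand beside the pooled ones.

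The ribosome joins a small subunit, which reads the messenger RNA, to a large subunit, which forms the peptide bond, and each carries its own set of proteins around ribosomal RNA. Cells make these proteins in matched amounts, and their mRNAs share a pyrimidine tract at the very start, the 5′ TOP, through which the mTORC1 pathway sets their translation. Nigral dopaminergic neurons support very large axons, and translation in them is of interest because α-synuclein inclusions are a mark of their disease.

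RefSeq promoter windows of GRCm38.p6, 250 bases before to 50 bases after the start, were matched by symbol for 60 of the 81 members. The letters CGGAAG, searched on both strands of the 300 bases, were in 41 of the 60 (68.3%), against 17.2% of all 27025 promoters and 33.5% of those of other genes at or above 10 CPM. The letters TCGCGAGA, on both strands, were in 15% of the members, 1.08% of all promoters and 2.62% of those of other genes at or above 10 CPM. CTTTC on the gene's own strand between 20 bases before and 20 bases after the start, a piece of the pyrimidine tract, was in 30% of the members, against 5.38% and 3.69%. TATAAA within the 50 bases before the start was in 0 of the 60 members, in 2.88% of all promoters and in 0.959% of those of other genes at or above 10 CPM. A match is a description of the letters only. None of the motifs contains another, though a CTTTC can share its last letter with a CGGAAG that follows it.

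Windows of 80 bases, 60 before and 20 after the RefSeq start, are printed 5′ to 3′ on the gene's strand. They are given for some members with high and some with low experiment to control ratios. The ratios are described further on, so that the sequences can be read beside the values. Capitals mark the motif CGGAAG and the motif TCGCGAGA, each in either orientation, and the motif CTTTC. In Rps19 the longer run of capitals holds TCGCGAGA overlapping its own reverse complement. The first 6 belong to members at least 1.5-fold higher, not all of them among the highest, and the last 4 to members with low ratios.
Rps27, chr3:90213629-90213708, minus strand: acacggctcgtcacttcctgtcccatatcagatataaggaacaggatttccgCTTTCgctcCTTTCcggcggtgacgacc
Rps19, chr7:24884532-24884611, plus strand: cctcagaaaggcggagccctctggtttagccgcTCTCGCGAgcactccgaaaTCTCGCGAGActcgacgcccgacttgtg
Rps23, chr13:90923062-90923141, plus strand: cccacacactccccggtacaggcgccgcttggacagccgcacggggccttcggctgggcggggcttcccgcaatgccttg
Rpl13, chr8:123102290-123102369, plus strand: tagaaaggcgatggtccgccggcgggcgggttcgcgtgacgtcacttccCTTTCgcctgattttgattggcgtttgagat
Rpl37, chr15:5116553-5116632, plus strand: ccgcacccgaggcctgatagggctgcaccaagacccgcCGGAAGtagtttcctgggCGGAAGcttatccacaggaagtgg
Rpl41, chr10:128549149-128549228, minus strand: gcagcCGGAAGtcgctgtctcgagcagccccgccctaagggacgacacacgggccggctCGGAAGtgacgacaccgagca
Rpl6, chr5:121204441-121204520, plus strand: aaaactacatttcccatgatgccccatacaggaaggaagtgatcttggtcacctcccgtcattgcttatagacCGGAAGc
Rpl39, chrX:37085203-37085282, minus strand: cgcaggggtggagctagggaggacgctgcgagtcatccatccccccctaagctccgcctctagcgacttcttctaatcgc
Rps9, chr7:3703981-3704060, plus strand: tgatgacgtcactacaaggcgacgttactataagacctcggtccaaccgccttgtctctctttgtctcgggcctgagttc
Rps13, chr7:116334171-116334250, minus strand: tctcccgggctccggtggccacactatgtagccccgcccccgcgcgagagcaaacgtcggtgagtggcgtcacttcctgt

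The ratios of members with and without CGGAAG or CTTTC are given as a description. Among the 56 expressed members with a promoter window, the 39 with CGGAAG had a median log2 ratio of 0.48 and the 17 without it 0.55. The 17 with CTTTC at the start had a median of 0.41 and the 39 without it 0.53. The ranges of all 4 sets overlapped, and a link between these letters and the ratio was not tested.

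Libraries held 116567 to 3094036 gene counts in the experiment group (median 960027) and 153770 to 2577694 in control (median 1039851). All 16 dopaminergic markers on the list used were expressed. Their summed level per library ran from 996 to 30058 CPM in experiment (median 19672) and from 2361 to 37254 CPM in control (median 25263). Summed glial markers had medians of 2236 and 1410 CPM, and summed GABAergic markers 139.96 and 51.1 CPM, while 0 of 7 endothelial and mural markers were expressed. By both weightings 12 of the 16 dopaminergic markers were lower in experiment, among them Th, the enzyme that makes L-DOPA, at 5277 against 9726 CPM, and 10 of 10 expressed astrocyte and 4 of 4 expressed GABAergic markers were higher. Of the expressed microglial markers 5 of 6 were higher, of the oligodendrocyte markers 4 of 6 and of the precursor markers 1 of 2. By the same rule 45.8% of all expressed genes were lower and 40.9% higher. The median mitochondrial share of the counts was 4.33% in experiment (0.495% to 9.43%) and 2.72% in control (0.32% to 7%). After thinning to 400000 counts, a median of 6916 genes was detected in 34 experiment and 8460 in 60 control libraries. The part of these markers and measures in the ribosomal protein values was not tested. Fewer transcripts of a neuron's own and more RNA of another cell in the pipette cannot be told apart.

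Ribosomal protein transcripts took a larger share of the RNA in the experiment neurons. Summed over all libraries, the members held 1.46% of the experiment gene counts and 1.02% of the control counts, a ratio of 1.43 (counting interval 1.42 to 1.43). Per library, the share ran from 0.696% to 4.19% in experiment, with a median of 1.27% and quartiles of 1.05% and 1.45%. In control it ran from 0.591% to 4.47%, with a median of 0.982% and quartiles of 0.838% and 1.1%. The groups overlapped over nearly their whole ranges, and 31 of the 38 experiment libraries were above the control median.

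A few libraries stood far above the rest. Experiment library 21 held 4.19% and, being deep, supplied 13.1% of all member counts of its group against 4.58% of its gene counts. Its dopaminergic markers summed to 5584 CPM, against the group median of 19672 CPM, and its GABAergic markers to 857 CPM. Control library 28 held 4.47% but only 275533 gene counts, so it weighed little in the pooled value. Experiment libraries 43 and 47 held 2.91% and 3.06%. Without experiment library 21 the ratio of the summed share was 1.3, and with the highest library dropped from both groups it was 1.32. Giving each library the same weight gave 1.28.

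The difference was carried by 3 of the 4 record blocks. In block 1 the summed shares had a ratio of 1.01, although 5 of 7 experiment libraries were above the control median of 0.897%. In block 2 the ratio was 1.57, with library medians of 1.24% in 14 experiment and 0.99% in 21 control libraries. In block 3 it was 1.54, with medians of 1.29% and 1.01%. In block 4 it was 1.45, and 4 of the 5 experiment libraries, between 1.18% and 1.6%, lay above the highest of the 17 control libraries at 1.29%. Block 4 was thus the block with the least overlap, and in block 1 the summed shares were nearly equal.

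**Figure D1:**
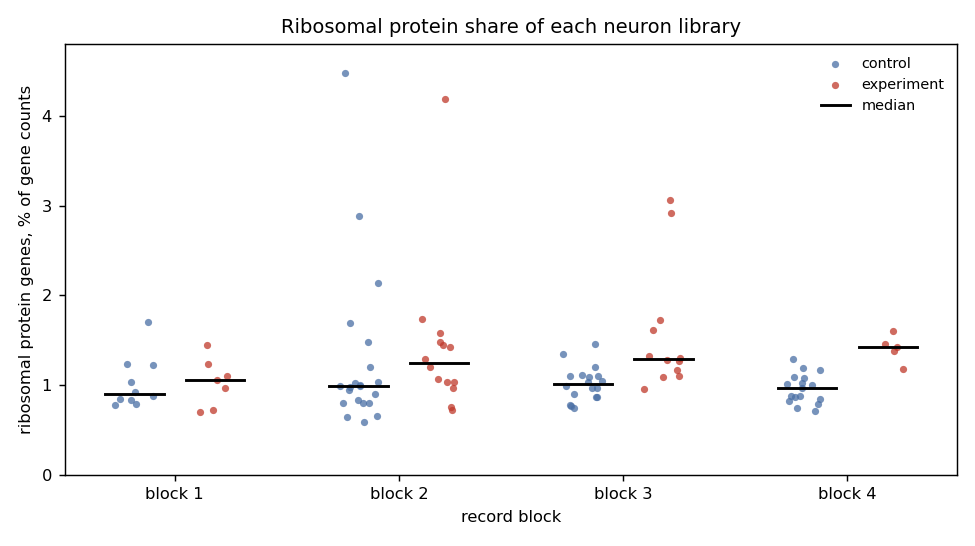
Share of gene counts in the 81 ribosomal protein genes (vertical axis, percent) for each of 104 single-neuron libraries, by record block, with control in blue, experiment in red and black lines at the medians. The medians are 0.897% and 1.05% in block 1 and 0.965% and 1.43% in block 4, and the highest points are control library 28 at 4.47% and experiment library 21 at 4.19%.

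The direction depended on what the counts were divided by. ERCC spike-ins, synthetic RNAs that came with the lysis buffer, had a median share of 0.421% of gene and ERCC counts together in experiment and 0.251% in control libraries. Per ERCC count, the experiment libraries held 0.519 to 37.1 member counts with a median of 2.52, and the control libraries 0.53 to 36.9 with a median of 4.18. Only 12 of 38 experiment libraries were above the control median on this scale. Pooled, the ratio of member counts per ERCC count was 0.851. The direction per ERCC count differed between blocks. Pooled, it was 0.39 in block 1 and 0.408 in block 4, but 1.19 in block 2 and 1.28 in block 3. In blocks 2 and 3 the library medians were 4.26 against 4.16 and 2.57 against 2.13, with 8 of 14 and 9 of 12 experiment libraries above the control median, and in blocks 1 and 4 it was 1 of 7 and 0 of 5. Less RNA drawn into the pipette and less RNA per neuron cannot be told apart.

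**Figure D2:**
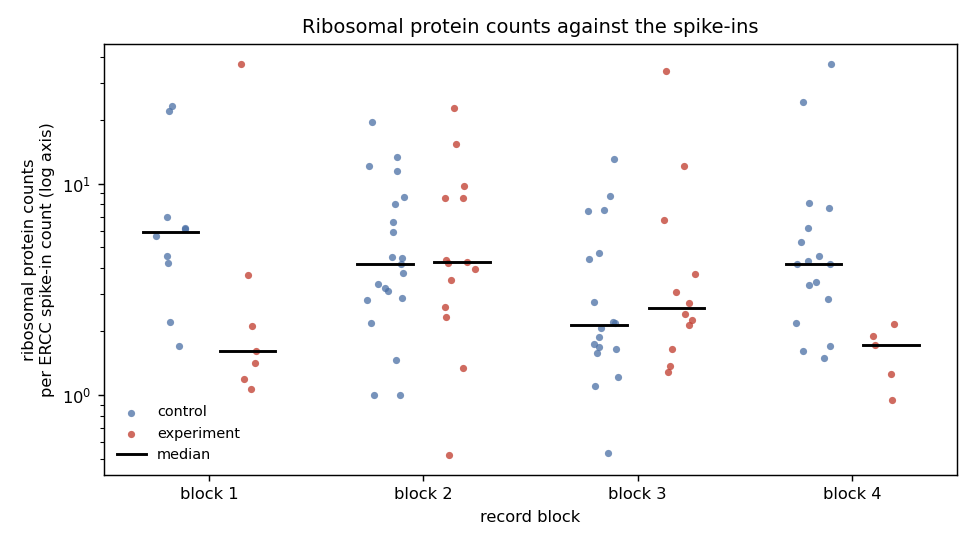
Ribosomal protein counts per ERCC spike-in count for each library (vertical log axis), by record block, with control in blue, experiment in red and black lines at the medians. The experiment medians are below the control medians in block 1 (1.62 and 5.89) and block 4 (1.73 and 4.19) and above them in block 2 (4.26 and 4.16) and block 3 (2.57 and 2.13).

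Both subunits took part, the small subunit somewhat more. Large subunit genes held 0.911% of the experiment and 0.649% of the control counts, a ratio of 1.4 (1.4 to 1.41). Small subunit genes held 0.552% and 0.374%, a ratio of 1.47 (1.47 to 1.48). The number of large subunit counts per small subunit count, which does not depend on the library total, ran from 1.34 to 2.67 in experiment with a median of 1.66. In control it ran from 1.4 to 2.29 with a median of 1.79. Of the 38 experiment libraries, 11 were above the control median, and the ranges overlapped almost entirely. The pooled ratio of the ratios was 0.952 (0.945 to 0.959).

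In pooled counts this balance lay on the same side in each block, but in block 1 the mean over libraries lay on the other side, at 1.79 in experiment and 1.73 in control. The experiment to control value of the large to small ratio was 0.99 in block 1, 0.939 in block 2, 0.961 in block 3 and 0.953 in block 4. It was 0.968 when the library with the highest share was dropped from each group, and 0.965 with libraries weighted equally. The shift is smaller than the distance between the quartiles of either group, which was 1.56 to 1.85 in experiment and 1.64 to 1.9 in control. Among control libraries the large to small ratio was lower where the ribosomal share was higher (Spearman rho -0.39, Pearson r -0.31, n = 66), and among experiment libraries likewise (rho -0.29, r -0.26, n = 38). Both measures come from the same counts of each library, so these values are descriptions.

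**Figure D3:**
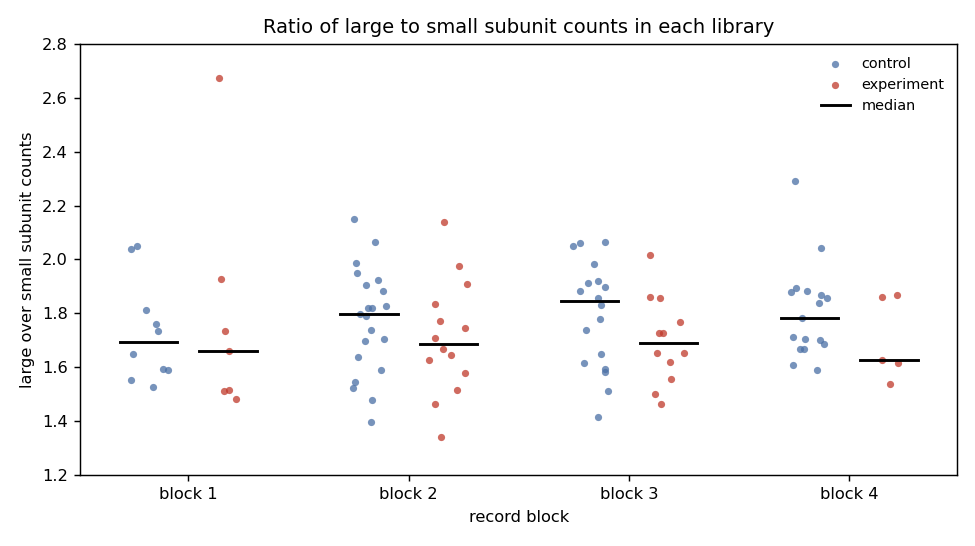
Large subunit counts divided by small subunit counts in each library (vertical axis, a ratio), by record block, with control in blue, experiment in red and black lines at the medians. The group medians are 1.66 in experiment and 1.79 in control, and the points overlap in each block.

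Gene by gene, the higher level was general rather than the work of a few members. All 77 expressed members had a higher pooled CPM in experiment and also a higher mean of the library CPM, which held for 40.9% of the 9113 expressed genes. None was lower by both, against 45.8% of all expressed genes. At least 1.5-fold higher were 29 of the 77, against a background of 11.1%, 16 of the large and 13 of the small subunit. None was 1.5-fold lower, against 15.5% of all expressed genes. The median log2 ratio was 0.51 for the members, 0.51 for the large and 0.54 for the small subunit, beside -0.03 for all expressed genes. For the typical member 25 of 38 experiment libraries were above the control median, and for all expressed genes the median was 16 of 38. More than 0.5 of the experiment libraries were above the control median in 71 of 77 members, against 22% of all expressed genes. In 0 of the 77 members did the libraries of the 2 groups separate. For all expressed genes 1 to 33 of the 38 experiment libraries were above the control median, so none of them separated either.

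The size of the difference rested partly on single libraries. Experiment library 21 was the highest library of its group for 48 of the 77 members, and control library 28 for 54. Without experiment library 21, 8 members were at least 1.5-fold higher (background 11.5%), 73 of 77 were higher by both weightings (41.6%), and the median log2 ratio was 0.38. With libraries weighted equally 6 members were 1.5-fold higher, which is below the background of 10.3%, and the median was 0.34. On the scale of mean log2(CPM + 1) the median difference was 0.27, beside -0.38 for all expressed genes. The direction was thus shared by nearly all members, and the number past 1.5-fold was not stable.

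**Figure D4:**
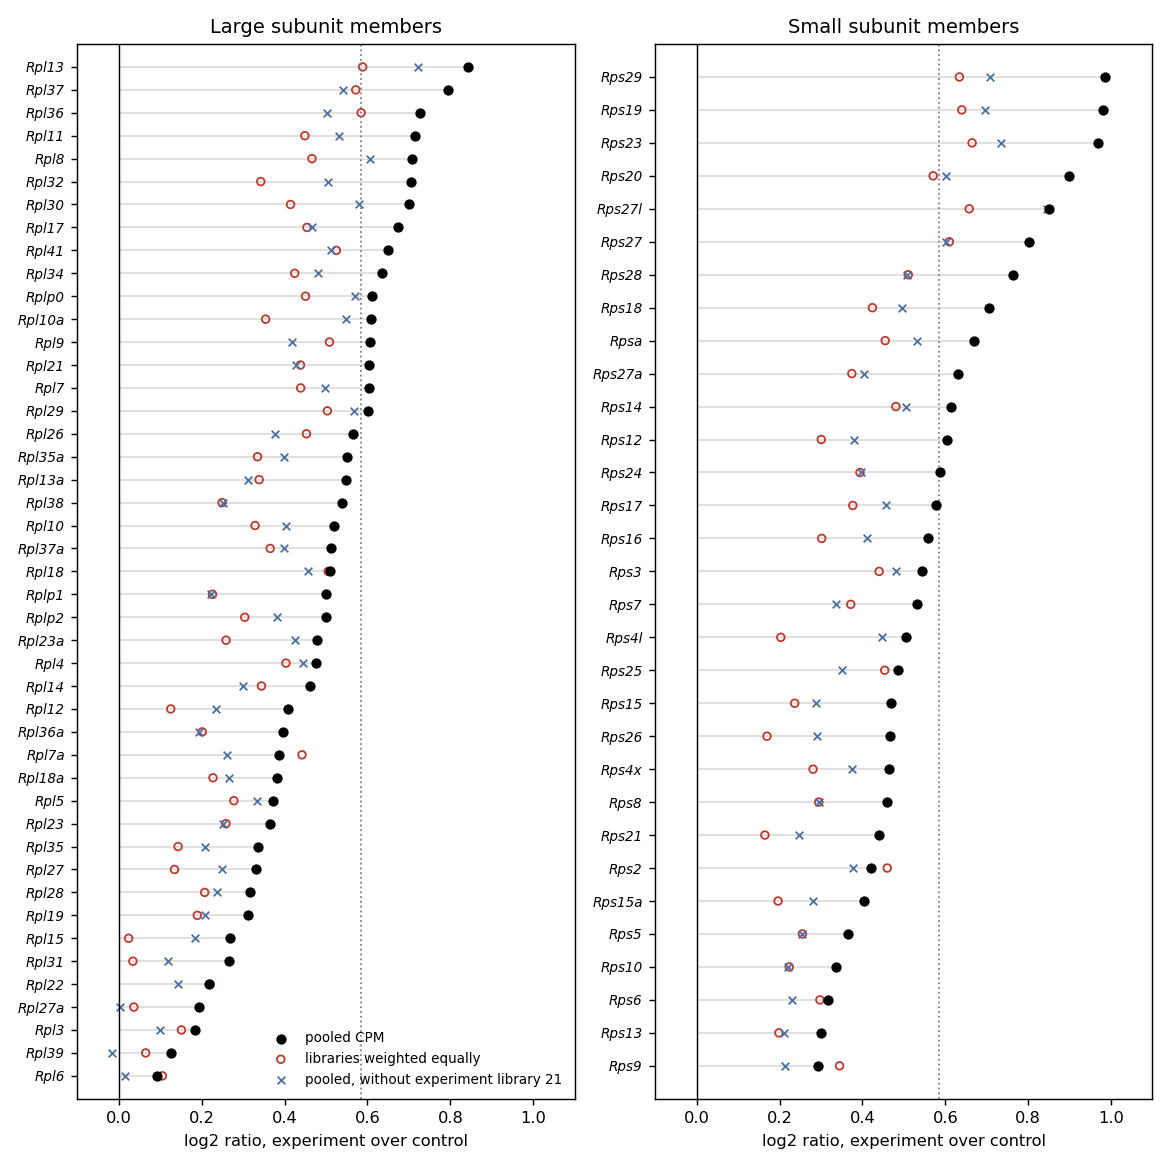
Log2 ratio of experiment over control (horizontal axis) for the expressed members of the large and the small subunit, 1 small subunit member left out, ordered by the ratio of pooled CPM (black), with equal weights (red circles) and without experiment library 21 (blue crosses); the dotted line is 1.5-fold. Pooled values run from 0.09 (Rpl6) to 0.99 (Rps29), and leaving out the library moves Rpl39 to -0.02.

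In the small subunit Rps29, Rps19 and Rps23 had the highest ratios of pooled CPM, and without experiment library 21 Rps27l did. Rps29, a zinc-binding protein of the head (chromosome 12, 69157722 to 69159186, minus strand), ran from 21.5 to 620.2 CPM in experiment with a median of 78.7. In control it ran from 13 to 384 CPM with a median of 60.2. The ranges overlapped, with 26 of 38 experiment libraries above the control median. Pooled, it stood at 134 against 67.5 CPM, a ratio of 1.98 (1.91 to 2.06), and at 1.55 with equal weights.

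Rps19, a head protein whose loss causes Diamond-Blackfan anaemia, had a pooled ratio of 1.97 (1.92 to 2.03) and 1.56 with equal weights. Its library medians were 182 CPM in experiment (51.5 to 1418) and 139 CPM in control (0 to 858). Rps23, which lines the decoding centre, had medians of 119 CPM (0 to 613) and 76.4 CPM (0 to 370.2) and a pooled ratio of 1.96. Rps20, a further head protein, had medians of 67.3 CPM (0 to 568) and 54 CPM (0 to 377), a pooled ratio of 1.87 and 1.49 with equal weights. For each of these 4 genes experiment library 21 was the highest of its group, and without it their ratios were 1.63 (Rps29), 1.62 (Rps19), 1.66 (Rps23) and 1.52 (Rps20).

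Rps27, a zinc-finger protein of the small subunit, differed in the largest number of libraries. Its library CPM ran from 25.7 to 670.2 with a median of 138 in experiment and from 24.8 to 766 with a median of 86.1 in control. Of the 38 experiment libraries, 33 were above the control median, and the pooled ratio was 1.74 (1.69 to 1.8), or 1.52 without experiment library 21. It was above 1 in each of the 4 blocks, between 1.1 and 1.93. Rps27l, a close paralog of Rps27 known as a target of p53, was lower in level, with medians of 27.9 and 16.3 CPM. Its ratio of 1.8 was the same without experiment library 21, in which it stood at only 37 CPM. In block 2, however, its log2 ratio was -0.01.

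The remaining small subunit members had ratios from 1.22 to 1.7. Rpsa, also known as the laminin receptor, stood at 1.59 and Rps27a, which is made as a fusion with ubiquitin, at 1.55. Rps6, the substrate of the S6 kinases below mTORC1, had library medians of 213 CPM in experiment (62.8 to 670.1) and 169 CPM in control (47.1 to 605), a ratio of 1.24. Rps25, used by viral and cellular internal ribosome entry, stood at 1.4 and Rps4x, an X-linked member, at 1.38. The lowest ratios were those of Rps9 at 1.22, Rps13 at 1.23, Rps6 at 1.24 and Rps10 at 1.26. Rps9 ran from 53.9 to 545 CPM in experiment and from 63.9 to 512 CPM in control, so that here too the groups overlapped.

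The 14 proteins of the 40S head were compared with the 18 other small subunit members. Their summed counts had a ratio of 1.56, against 1.42 outside the head, and 7 of 14 against 6 of 18 were at least 1.5-fold higher (background 11.1%). Without experiment library 21 these counts were 3 of 14 and 3 of 18 (background 11.5%), and the quotient of the ratios was 1.06 in place of 1.09. Head counts per other small subunit count had library medians of 0.684 in experiment and 0.641 in control, with ranges of 0.328 to 1.03 and 0.438 to 1.02. Of the 38 experiment libraries, 24 were above the control median. Within blocks the experiment to control value of this measure was 1.02, 1.18, 1.08 and 0.953, all from pooled counts, and with equal weights it was 1.03. By library medians block 1 was the one below control (0.608 and 0.659), and block 4 was above it (0.651 and 0.618), so that the block with the opposite sign depended on the weighting. The 33 members with counterparts in bacteria had a median log2 ratio of 0.54 and the 44 others 0.51.

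In the large subunit Rpl13 stood highest. This gene (chromosome 8, 123102350 to 123105244, plus strand) ran from 38.5 to 1587 CPM in experiment with a median of 491, and from 129 to 2065 CPM in control with a median of 285. Of the 38 experiment libraries, 32 were above the control median, and the pooled ratio was 1.79 (1.76 to 1.83). The highest experiment library was number 43, and without library 21 the ratio was 1.65. Rpl36, a short mRNA, likewise had 32 experiment libraries above the control median, with medians of 147 and 87.1 CPM and a ratio of 1.66. Rpl8, a core protein close to the peptidyl transferase centre, had 31 of 38, medians of 217 and 138 CPM and a ratio of 1.63. Without library 21 the ratios of Rpl36 and Rpl8 were 1.42 and 1.52.

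Rpl37, a zinc-binding protein of the large subunit, had a ratio of 1.73, with medians of 102 CPM (30.7 to 634) and 77.3 CPM (1.48 to 660.5). Rpl41, the smallest ribosomal protein, stood at 1.57 with medians of 194 and 141 CPM. Rpl9 stood at 1.52 with medians of 186 and 133 CPM. Rpl36, Rpl37, Rpl41 and Rpl9 were each below 1 in block 1, at 0.902, 0.985, 0.874 and 0.688, and above 1.5 in the other blocks.

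The proteins of functional sub-assemblies had ratios within the range of the other members. In the P stalk, which recruits the GTPase factors of translation, Rplp0 had a ratio of 1.53, Rplp1 1.41 and Rplp2 1.41. Rplp1 had the same median of 146 CPM in both groups, with ranges of 12.3 to 1035 and 24.8 to 860.2, and its pooled difference was reduced to a log2 ratio of 0.22 without experiment library 21. The partners of the 5S RNA, Rpl5 and Rpl11, which also bind Mdm2 when ribosome assembly is disturbed, had ratios of 1.3 and 1.64. Rpl11 ran from 11.8 to 699 CPM in experiment (median 167) and from 2.96 to 766 CPM in control (median 118). Rpl10, which joins the large subunit late in its maturation, stood at 1.43, Rpl10a at 1.53 and Rpl38, known for its part in the translation of Hox mRNAs, at 1.45. Without experiment library 21 the ratios of Rplp0, Rpl11 and Rpl10a were 1.48, 1.44 and 1.46.

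The lowest ratios of all were in the large subunit. Rpl6 had medians of 351 CPM in experiment (116 to 734) and 307 CPM in control (142 to 1074), a pooled ratio of 1.07 (1.04 to 1.09). Rpl39, a protein of the exit tunnel, had medians of 28.3 and 27.7 CPM and a ratio of 1.09, which was 0.988 without experiment library 21. Rpl3, next to the peptidyl transferase centre, and Rpl27a both stood at 1.14, and Rpl22, an RNA-binding protein not needed for translation in general, at 1.16. For these 5 members the library ranges overlapped almost entirely, with 18 to 24 of 38 experiment libraries above the control median.

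Paralogs known from other tissues were nearly silent. Rpl10l, a testis gene, had 0 counts in all 104 libraries, where 3 counts would be 0.0747 CPM in experiment and 0.0404 CPM in control. Rpl39l, also a testis gene, had 35 and 32 counts, and Rpl3l, a muscle gene, 67 and 172. After thinning to 400000 counts, which left 34 experiment and 60 control libraries, Rpl3l had a count in 1 (2.94%) and 7 (11.7%) of them. Rps4l, which the annotation lists as a transcribed processed pseudogene, stood at 52.8 and 37.2 CPM, with a count in 67.6% of the thinned experiment and 70% of the thinned control libraries. Rpl24, a general protein of the large subunit, was listed at only 1.39 and 1.72 CPM. Ribosomal protein genes have many processed copies. The sources used here do not say how a read matching more than one gene was treated, so the level of each member is uncertain.

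Levels of different members are compared per kilobase of exon, from the GENCODE vM21 annotation of GRCm38. Rplp1 was highest in control at 315 CPM per kb, followed by Rpl4 at 270.3, Rpl36 at 254 and Rps15 at 194. On this scale of all annotated exons the lowest expressed members were Rpl22 at 9.45, Rps15a at 11.1 and Rps20 at 15.3 CPM per kb. In plain control CPM they stood at 27.5, 69.5 and 62.3, beside 16.2 for Rpl23a and 19.4 for Rps27l. In experiment Rplp1, Rpl36 and Rpl4 led at 446, 419.8 and 376 CPM per kb. The order was nearly the same in both groups (Spearman rho 0.98 over 77 genes, which share the same lengths). With the mean length of coding transcripts in place of all exons, 5 of the 10 highest were the same and Rpl3, Rpl13a and Rpl13 led, so that ranks near the top depend on the length used. In plain counts Rpl4 was the largest member in both groups, with 5.15% of the experiment and 5.3% of the control member counts.

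Within record blocks the members followed the sum. In block 1, 37 of 77 were higher in experiment (background 45.2%), with a median log2 ratio of -0.02. In block 2, 75 were higher (43%), with a median of 0.7, in block 3 all 77 (46.5%), with a median of 0.61, and in block 4 72 (48%), with a median of 0.54. At least 1.5-fold higher were 8 members in block 1 (24.1%), 51 in block 2 (15.8%), 43 in block 3 (18.9%) and 33 in block 4 (26.5%). Higher in all 4 blocks were 33 members, against 6.51% of all expressed genes, among them Rps29, Rps19, Rps23, Rps27, Rpl13, Rpl11, Rpl8, Rplp0, Rpl4 and Rps25. The members with the lowest ratios in block 1 included Rpl27a at 0.37 and Rpl39 at 0.521, which stood at 1.45 and 1.43 in block 2. Which members were ahead differed between the first pair of blocks and the second, since across the 77 members the log2 ratios of the 2 pairs had a Spearman rho of 0.16, over genes that share libraries, and across 9024 expressed non-members rho was 0.12.

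**Figure D5:**
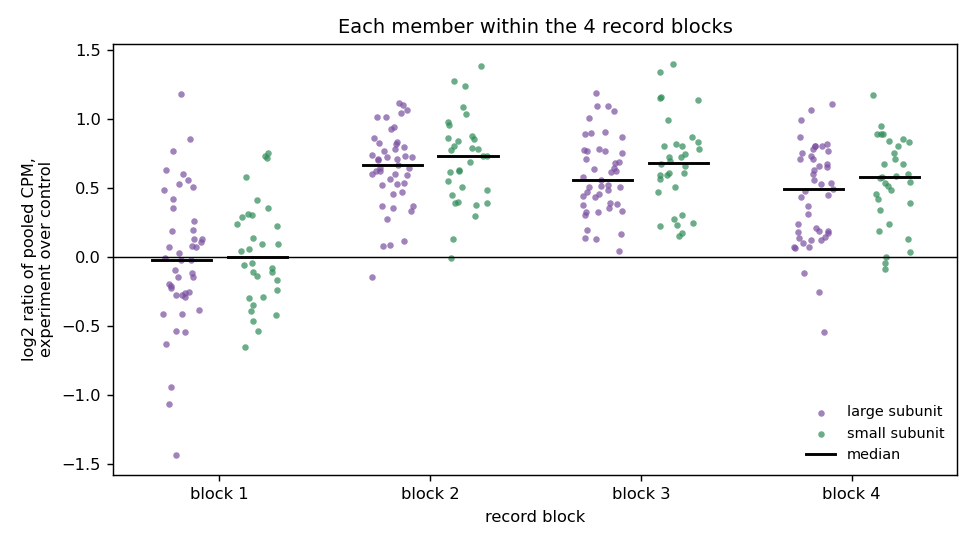
Log2 ratio of pooled CPM, experiment over control (vertical axis), of each expressed member within the 4 record blocks, with 45 large subunit members in purple, 32 small subunit members in green and black lines at the medians. The medians lie at about 0 in block 1 and between 0.49 and 0.73 in the other blocks.

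Members varied together from neuron to neuron within a group. Over the 66 control libraries each member's CPM had a Spearman rho with the sum of the other members between 0.08 (Rpl23a) and 0.76 (Rps26), with a median of 0.48. Over the 38 experiment libraries the values ran from 0.13 (Rpl22) to 0.8 (Rpl9), with a median of 0.52. Of the 77 members, 33 in control and 40 in experiment were above 0.5. The same share over all expressed genes was not counted, so these values do not show that co-variation is particular to the members. Rps27l was loosely tied to the rest in control, at 0.09. These correlations share library totals and depth and are descriptions only.

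The genes most like the summed members over the 66 control libraries, among 3935 other genes at or above 50 CPM, were Ppia (rho 0.69), Eef1a1 (0.68), Rn18s-rs5 (0.63), Uqcrh (0.63) and Fth1 (0.62). Ppia is cyclophilin A, Eef1a1 an elongation factor with a 5′ TOP mRNA, Uqcrh a subunit of respiratory complex III and Fth1 the ferritin heavy chain. Rn18s-rs5, a row related to 18S ribosomal RNA, took 45798 CPM in experiment and 26138 CPM in control. Their ratios between groups were 0.898 for Ppia, 1.29 for Eef1a1, 1.75 for Rn18s-rs5, 1.17 for Uqcrh and 1.9 for Fth1. Likeness over control neurons thus went with ratios on both sides of 1.

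Over libraries, the member share was only loosely tied by rank to other measures. With depth, genes detected after thinning, ERCC share, mitochondrial share, summed glial markers and summed dopaminergic markers its Spearman rho ran from -0.27 to 0.2 in the 2 groups. The furthest rho values were those with dopaminergic markers, -0.26 over 66 control and -0.27 over 38 experiment libraries (Pearson r -0.32 and -0.22). Without the 2 libraries furthest from the median marker level, rho was -0.2 and -0.22. The member share and the marker level are parts of one total. By Pearson r the furthest value was 0.37, with ERCC share in control, and 0.16 without the 2 furthest libraries. With depth in experiment r was 0.18, and 0.42 without the 2 furthest libraries.

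Other genes of the protein synthesis machinery differed in how far they shared the pattern. For comparison, 40.9% of all expressed genes were higher and 45.8% lower by both weightings. Ribosomal proteins that the name rule leaves out were higher by both weightings in 6 of 6 expressed cases, with a median log2 ratio of 0.39; Rps3a1 stood at 1.47, Fau, made as a fusion to a ubiquitin-like protein, at 1.28 and Gnb2l1, the scaffold Rack1, at 1.11. Other 5′ TOP mRNAs were higher in 17 of 18, with a median of 0.35. Among them were the elongation factor Eef2 at 1.47 and the initiation factor subunit Eif3e at 1.5. Eef2 was above 1 in 3 of the 4 blocks and at 0.839 in block 1. Eif3e was above 1 in 2 blocks, and at 0.82 in block 2 and 0.883 in block 4. For Eif3e 19 of the 38 experiment libraries were above the control median. Hnrnpa1 was the exception at 0.965. In block terms this list was less steady, since its median was 0.06 in the first pair of blocks and 0.51 in the second.

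Translation initiation and elongation factors outside that list had a median of 0.11, with 18 of 32 higher and 10 lower by both weightings. Eif3c and Eif1 stood at 1.59 and 1.55, and Eif2b5, a subunit of the exchange factor of eIF2, at 0.601. Ribosome biogenesis factors had a median of 0.09, with 23 of 44 higher and 16 lower, from Gnl3, nucleostemin, at 1.86 to Wdr43 at 0.414. RNA polymerase I and its factors had a median of 0.07, with 7 of 15 higher and 4 lower. The 76 expressed proteins of the mitochondrial ribosome had a median of 0.04, with 36 higher and 35 lower. These lists lay near the -0.03 of all expressed genes, while the proteins of the cytosolic ribosome and the 5′ TOP mRNAs lay above it.

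The mTORC1 list was mixed. Of its 13 expressed genes 7 were higher and 5 lower by both weightings (background 40.9% and 45.8%), with a median of 0.27. Eif4ebp1, the translational repressor that mTORC1 phosphorylates, stood at 20.3 and 5.11 CPM, a ratio of 3.97, and Myc, a driver of ribosome production, at 24.2 and 6.17 CPM, a ratio of 3.92. With equal weights these ratios were 4.53 and 2.98. Both had a median of 0 CPM in both groups. Myc had counts in 9 of 38 experiment and 18 of 66 control libraries, experiment library 52 held 416 of its 973 experiment counts, and without that library the ratio was 2.29. Its block ratios ran from 0.951 to 27.8. Eif4ebp1 had counts in 14 and 12 libraries, its ratio was 0.952 in blocks 1 and 2 together, and in blocks 1 and 4 no experiment library held a count. Tsc2, a brake on mTORC1, stood at 30 and 77.6 CPM, a ratio of 0.387, and the La-related protein Larp4, which binds poly(A), at 0.568.

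Short mRNAs in general were slightly higher in experiment. Expressed non-members with up to 1 kb of exon had a median log2 ratio of 0.14, those of 1 to 2 kb 0.04, those of 2 to 4 kb -0.005 and those over 4 kb -0.08. At or above 100 CPM, the shortest class had a median of 0.18. The members, with a median exon length of 1781 bases and 729 bases of mean coding transcript, stood at 0.51. Among the members themselves the log2 ratio was nearly unrelated to exon length (Spearman rho -0.09 over 77 genes) and weakly to coding transcript length (-0.23 over 76 genes). The part of transcript length in the difference was not tested further.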

How the data were processed

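Full-length cDNA from single neurons was made by Smart-seq2 and sequenced after HyperPlus library preparation, as the labels' protocols say. What the authors deposited is a single table of raw counts by gene symbol. STAR 2.5.3a, featureCounts 1.5.3 and mm10 are named per the submitters' processing notes; on the annotation, the use of strand and multiply mapped reads the sources used here say nothing. The 92 ERCC rows were kept out of library totals. Groups came from sample titles, and no library was left out. The values of 1 member are not reported here by name.

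Counts were summed per group and divided by the summed gene counts (pooled CPM). Ratios carry the 95% interval of the exact binomial split, sums an exact Poisson one, medians over genes an order-statistic one, and the large to small and head to rest quotients a log-normal approximation. Beside them stand mean library CPM, mean log2(CPM + 1), and values per ERCC count. With 1 sample a group, a call means at least 1.5-fold. TMM factors came from edgeR 4.0.16 in R 4.3.3, used for scaling only; the rest used Python 3.11.15. The interval code was tested on simulated data.

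Members, lists and alternatives were chosen with earlier results of these data known. Members named by rule were, per subunit, the 5 with the highest and 4 with the lowest ratio taking the smaller of both weightings (the larger for the lowest), the 3 highest and 3 lowest per kb, and a fixed set with known roles; per list, the 2 highest and 2 lowest genes; and the 5 non-members most like the summed members. Rpl8, Rpl13a, Rps26 and the 40S head comparison were chosen after their values were seen. Depth ran from 116567 to 3094036 counts.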

Additional observations from a re-analysis of the deposited data

Results flagged for a closer look

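Among rows outside the members, 1 further set was summed, and it too was higher in experiment. The 258 rows named as ribosomal protein pseudogenes, which no comparison above uses, held 0.012% of the experiment and 0.00803% of the control gene counts, a ratio of 1.5 (counting interval 1.44 to 1.55). Per library they summed to 38.5 to 473 CPM in experiment (median 96.3, mean 117) and 25.8 to 726 CPM in control (median 78.1, mean 93.6), so the groups overlapped. The highest were experiment library 21 and control library 28, as for the member share. The pseudogene ratio without experiment library 21 was not computed. Their pooled ratio is near the pooled 1.43 of the members, which was 1.3 without experiment library 21. Whether these reads come from the pseudogenes or from member mRNAs was not tested.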

How the results depend on the processing

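No paired analysis was possible because the replicate numbers only name single neurons and no test was made. Values under other settings follow, beside the main ones (summed share 1.43, large 1.4, small 1.47, large to small 0.952, median log2 0.51, 29 members at 1.5-fold). The cause of each move was not tested. Of all expressed genes, 11.1% were at least 1.5-fold higher in the main values and 10.3% with equal weights. Where no such share is given for a setting, it was not counted there. A count of members under that setting does not show whether they differ from other genes.

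With equal weights the summed ratios were 1.28 (all), 1.26 (large) and 1.31 (small), large to small was 0.965, the medians 0.34, 0.34 and 0.37, 6 members passed and the head to rest value was 1.03 in place of 1.09. Among libraries at or below the median ERCC share (12 experiment, 40 control) these were 1.76, 1.72, 1.82, 0.944, 0.82, 0.82, 0.82, 60 and 1.19. Per ERCC count the sums were 0.851, 0.836 and 0.878, the medians -0.23, -0.24 and -0.21, and 0 members passed. Of the 40 named members 32 were below 0 there; those at least 1.5-fold higher in the main values were Rpl10a (-0.14), Rpl11 (-0.032), Rpl36 (-0.021), Rpl41 (-0.10), Rpl9 (-0.14), Rplp0 (-0.14), Rps12 (-0.14), Rps27a (-0.12) and Rpsa (-0.078).

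In block 1 the values were 1.01, 1.00, 1.01, 0.99, -0.022, -0.022, -0.00074, 8 and 1.02, with 22 of the 40 named members below 0, of which those at least 1.5-fold higher in the main values were Rpl36 (-0.15), Rpl37 (-0.022), Rpl41 (-0.19), Rpl9 (-0.54), Rps20 (-0.30), Rps27a (-0.29) and Rpsa (-0.40). In block 2 they were 1.57, 1.53, 1.63, 0.939, 0.70, 0.67, 0.73, 51 and 1.18, with 1 named member below 0, Rps27l at -0.0071. In block 3 the sums were 1.54, 1.51 and 1.58, large to small 0.961, the medians 0.61 (all) and 0.68 (small), head to rest 1.08. In block 4 the sums were 1.45, 1.42 and 1.5, head to rest 0.953. In blocks 1 and 2 together the sums were 1.31, 1.29 and 1.35 and the medians 0.40 (all) and 0.40 (small). There 19 members passed and head to rest was 1.12. In blocks 3 and 4 the sums were 1.54, 1.51 and 1.59, the medians 0.65 and 0.68, head to rest 1.05. Of all expressed genes, 24.1% were at least 1.5-fold higher in block 1, 15.8% in block 2 and 14.9% in blocks 1 and 2 together.

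Without the highest library of both groups the sums were 1.32, 1.3 and 1.35, large to small 0.968, the medians 0.42 and 0.42 (small), 9 members passed and head to rest was 1.06. Without the libraries lowest in dopaminergic markers (7 experiment, 3 control; chosen after seeing the data, as were the head comparison, leaving out single libraries and the values per ERCC count within blocks) they were 1.32, 1.29, 1.37, medians 0.38, 0.36 and 0.42, 12 members and 1.04. Without those highest in glial markers they were 1.5, 1.47, 1.56, 0.941, median 0.58 and 1.06. Without libraries under 400000 counts the sums were 1.47, 1.44 and 1.51. With members out of the totals they were 1.44 (all) and 1.41 (large), with mitochondrial genes out 1.45, 1.42 and 1.49. TMM factors gave a median of 0.45 and 17 members, log2(CPM + 1) medians of 0.27, 0.24 and 0.30. By coding transcript length 5 of the 10 highest members stayed the same. Without thinning, Rpl24 was detected in 39.5% (experiment) and 47% (control). Leaving out single libraries, the summed ratio ran from 1.3 to 1.47, and from 8 (without experiment library 21) to 35 members (without experiment library 1) passed. Without experiment library 21, 11.5% of all expressed genes were at least 1.5-fold higher.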
